A study of Mus musculus with 26 samples.

Results

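The histamine, serotonin and leukotriene mediator genes are 10 genes of inflammatory mediator synthesis and storage, listed by name, with 1 probe set for each symbol. Of the 10, 9 were measured among 19938 genes: Hdc and Slc18a2 of histamine handling, Slc18a2 and Tph1 of serotonin handling, Alox5, Alox5ap and Ltc4s of leukotriene synthesis, the lipoxygenase gene Alox15, and Hpgds and Ptgs2 of prostaglandin synthesis. Ptgs1 was listed but is not analysed here. Each of the 9 had a single probe set, so no choice between probe sets was made.

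RNA of blood stem and progenitor populations, sorted out of bone marrow, was measured on 26 arrays; the mice were Gata1-EGFP Tg/+ and aged 8 to 15 weeks, and all 8 groups share this genotype. EGFP reports Gata1, and what drives the transgene is not given in the sources used here. There were 3 arrays for each group except GMP GFP- and LMPP, which had 4. The labels do not say that arrays of a group came from separate animals, so the p-values measure the spread between arrays, which may be technical.

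Granulocyte-macrophage progenitors (GMP) were sorted as Lin-, cKit+, Sca1-, CD41- and FcgRII/III+, and divided into GMP GFP+ and GMP GFP- by the reporter. PreMegE, progenitors of the megakaryocyte and erythroid lines, were Lin-, cKit+, Sca1-, CD41-, FcgRII/III-, CD150+ and CD105-, with no gate on the reporter. PreGM cells, which precede GMP, had the same gate but were CD150-, and were divided into PreGM GFP+ and PreGM GFP-. Common lymphoid progenitors (CLP) were Lin-, B220-, Sca1 low, cKit low, Flt3+ and IL-7Ra+, with no gate on the reporter. Lymphoid-primed multipotent progenitors (LMPP) were Lin-, cKit+, Sca1+, CD150-, Flt3 high and EGFP-. Haematopoietic stem cells (HSC GFP-) were Lin-, cKit+, Sca1+, CD150+, Flt3- and EGFP-. The HSC EGFP+ population named in the study's design is not analysed here.

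Mast cells and basophils store histamine in granules and release it, together with newly made leukotrienes and prostaglandins, when their IgE receptors are cross-linked. Hdc, histidine decarboxylase, makes histamine, Tph1, tryptophan hydroxylase, begins serotonin synthesis, and Slc18a2, the vesicular monoamine transporter VMAT2, loads both amines into granules. Alox5, 5-lipoxygenase, works with its activating protein Alox5ap to make leukotriene A4 from arachidonic acid, and Ltc4s turns this into leukotriene C4. Ptgs2 is an inducible cyclooxygenase, Hpgds makes prostaglandin D2, and Alox15 oxidises arachidonic acid at another carbon.

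Values are log2 signals. The median of all values was 6.61, and a signal below it may be no more than background, so a difference that involves a mean under 6.61 is given as one of signal and not as a fold. Array medians lay between 6.42 and 6.702, and arrays correlated over genes with r between 0.9505 and 0.989 within groups and between 0.923 and 0.983 between groups. Gata1 itself averaged 8.08 ± 0.15 in GMP GFP+ against 6.42 ± 0.04 in GMP GFP-, and 8.48 ± 0.41 in PreGM GFP+ against 6.73 ± 0.39 in PreGM GFP- (SD, n = 3 except 4 for GMP GFP-). Of the genes behind the gates, Fcgr3, of the FcgRII/III gate, averaged 9.78 in GMP GFP+ and 9.52 in GMP GFP- but 7.49 or less elsewhere, and Il7r averaged 9.94 in CLP but 6.68 or less elsewhere. RNA of Itga2b, which encodes CD41, ran against the gate on the surface protein in GMP GFP+, PreMegE and PreGM GFP+. It averaged 8.57, 8.37 and 8.63 in these groups, all sorted as CD41-. It averaged 7.17 in CLP and 6.98 in LMPP, for which no CD41 gate is given. GMP GFP- and PreGM GFP-, also sorted as CD41-, are not part of this statement.

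Across the 8 groups, 4 of the 9 genes differed in a moderated F test of limma adjusted by the Benjamini-Hochberg method over all genes, against 15.2% of all genes. They were Slc18a2, whose group means spanned 4.003 log2 units (adjusted p = 6.79e-14), Hdc (3.88, adjusted p = 5.52e-14), Alox5 (3.17, adjusted p = 2.06e-11) and Hpgds (0.96, adjusted p = 0.0061). Each of the 4 had its highest mean in GMP GFP+. Their lowest means lay in different groups: CLP for Slc18a2, LMPP for Hdc and Alox5, and GMP GFP- for Hpgds.

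**Figure D1:**
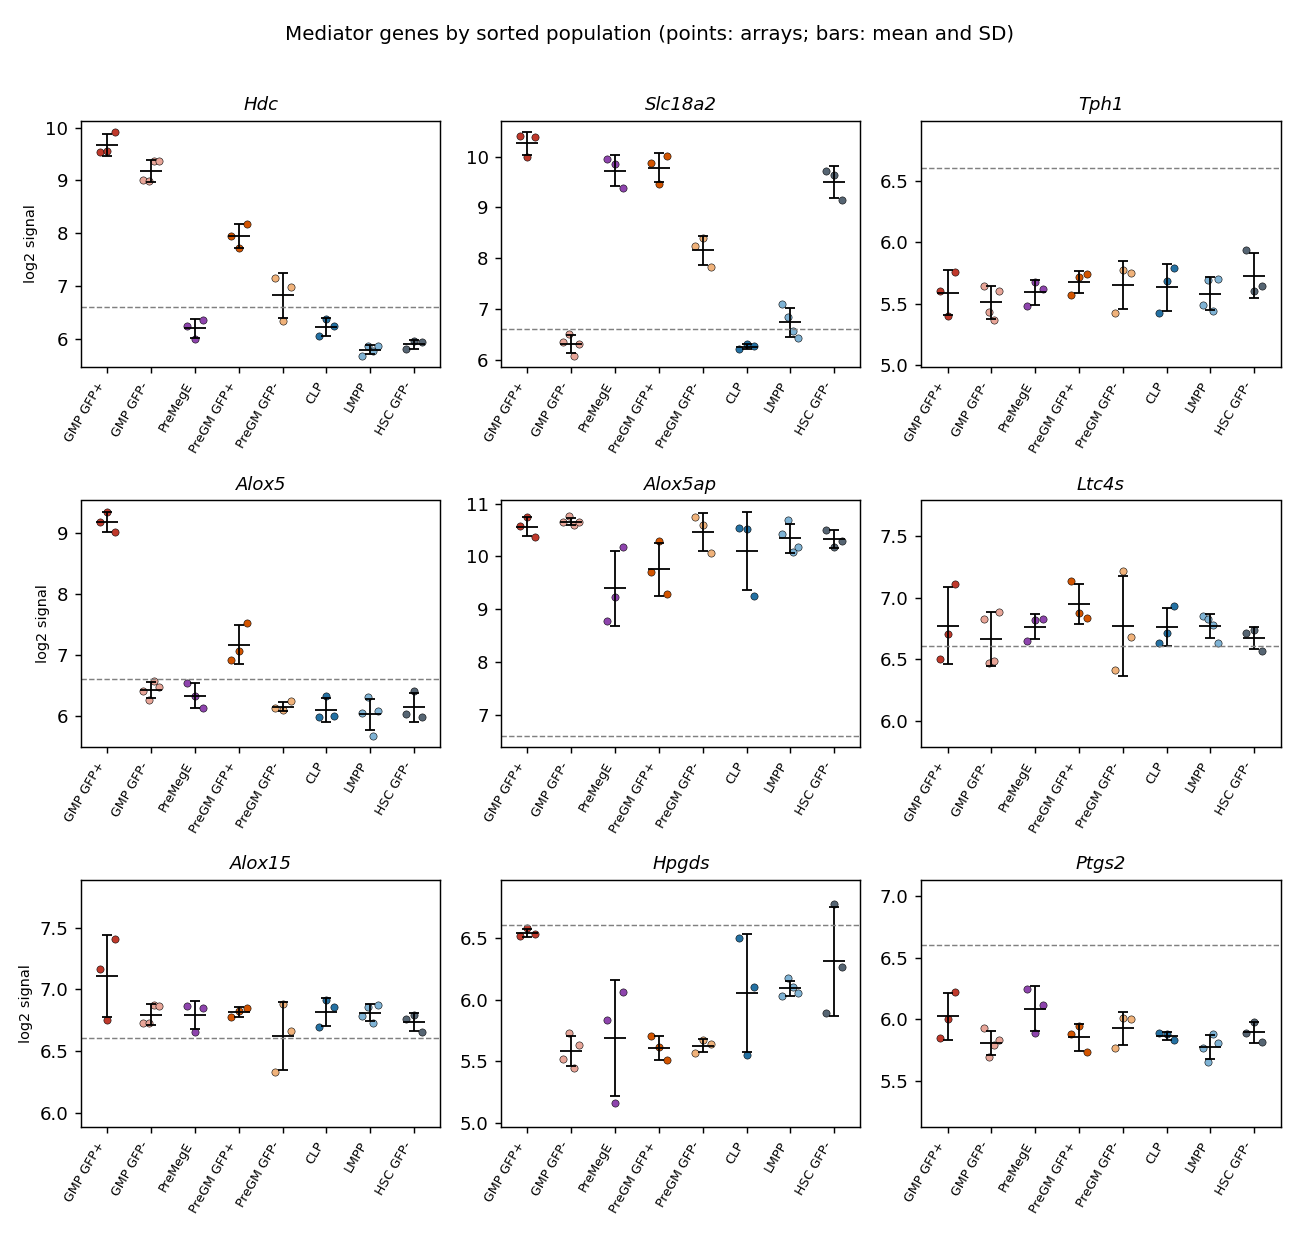
Log2 signal of the 9 measured mediator genes in the 8 sorted populations; points are arrays, bars the group mean and SD, and the dashed line the median of all values, 6.61. Hdc was high in both GMP groups, Slc18a2 in GMP GFP+, PreMegE, PreGM GFP+ and HSC GFP-, and Alox5 in GMP GFP+, while Tph1, Ltc4s, Alox15 and Ptgs2 had group means within 0.49 log2 units of each other.

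The promoters of these 4 genes are shown because their signals separated the populations, and because the sort used a reporter of Gata1, a factor that binds GATA words. Each sequence is the 250 bases before the RefSeq transcript start in GRCm38.p6, written 5′ to 3′ on the gene's strand. Capitals mark the words searched on both strands: the GATA words AGATAA or AGATAG or TGATAA or TGATAG, the MITF E-box words CACGTG and CATGTG, and the PU.1 word GAGGAAG. Hdc lies at chr2:126618679-126618928 (minus strand), Slc18a2 at chr19:59260628-59260877 (plus strand), Alox5 at chr6:116461179-116461428 (minus strand) and Hpgds at chr6:65144731-65144980 (minus strand).
Hdc: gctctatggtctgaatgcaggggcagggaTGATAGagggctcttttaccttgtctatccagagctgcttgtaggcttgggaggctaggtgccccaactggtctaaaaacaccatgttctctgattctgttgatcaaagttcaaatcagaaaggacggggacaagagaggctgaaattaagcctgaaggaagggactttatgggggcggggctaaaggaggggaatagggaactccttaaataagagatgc
Slc18a2: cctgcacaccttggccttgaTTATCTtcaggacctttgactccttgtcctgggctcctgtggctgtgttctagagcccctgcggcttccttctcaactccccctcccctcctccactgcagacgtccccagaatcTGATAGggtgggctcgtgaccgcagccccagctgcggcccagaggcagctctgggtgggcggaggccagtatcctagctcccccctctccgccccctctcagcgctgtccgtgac
Alox5: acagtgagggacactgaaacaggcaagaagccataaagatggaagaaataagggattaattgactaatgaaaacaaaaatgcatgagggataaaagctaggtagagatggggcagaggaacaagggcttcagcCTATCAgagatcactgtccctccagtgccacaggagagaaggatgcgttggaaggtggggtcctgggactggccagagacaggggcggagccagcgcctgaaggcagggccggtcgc
Hpgds: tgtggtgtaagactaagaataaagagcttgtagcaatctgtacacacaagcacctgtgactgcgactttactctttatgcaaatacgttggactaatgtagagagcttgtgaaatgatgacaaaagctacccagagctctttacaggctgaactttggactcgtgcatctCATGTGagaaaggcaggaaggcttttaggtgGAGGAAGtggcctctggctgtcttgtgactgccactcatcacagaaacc

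Hdc held 1 GATA word, TGATAG, whose first base was 221 bases before the start. Slc18a2 held 2, at 230 bases (TTATCT, on the other strand) and at 115 bases (TGATAG). Alox5 held 1 at 117 bases, CTATCA, on the other strand. Hpgds held no GATA word but an E-box word, CATGTG, at 80 bases and GAGGAAG at 49 bases. Of the 8 listed genes with a promoter in the RefSeq table, 4 held a GATA word, the other being Tph1, in 1 of its 2 promoters, whose signal did not differ among the groups. Among 32851 promoters of the same length, 26.5% held a GATA word, 17.6% an E-box word and 10.6% the PU.1 word. The matches did not overlap each other, and they describe letters, not bound sites. Alox5ap and Alox15 had no entry in the table.

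Hdc had its highest signals in GMP, with and without the reporter. Hdc read 9.54, 9.57 and 9.92 in GMP GFP+, and 8.99, 9.01, 9.36 and 9.37 in GMP GFP-. It read 7.72, 7.95 and 8.17 in PreGM GFP+ and 6.35, 6.98 and 7.15 in PreGM GFP-. The other 4 groups all lay under the median of all values, with means of 6.20 in PreMegE, 6.22 in CLP, 5.80 in LMPP and 5.90 in HSC GFP-. In this order of levels, neighbours did not overlap from GMP GFP+ through GMP GFP- and PreGM GFP+ to PreGM GFP-, whereas PreGM GFP- overlapped CLP, CLP overlapped PreMegE, and HSC GFP- overlapped LMPP.

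The vesicle transporter had another distribution. Slc18a2 read 10.003, 10.38 and 10.40 in GMP GFP+ but 6.08, 6.31, 6.34 and 6.51 in GMP GFP-, which all lay under the median of all values. It read 9.38, 9.85 and 9.94 in PreMegE, 9.47, 9.88 and 10.01 in PreGM GFP+, and 9.15, 9.64 and 9.73 in HSC GFP-. The groups GMP GFP+, PreGM GFP+, PreMegE and HSC GFP- overlapped as neighbours in the order of levels. PreGM GFP- lay between, at 7.82, 8.24 and 8.39, apart from its neighbours on both sides. LMPP read 6.44, 6.57, 6.84 and 7.10, and CLP 6.21, 6.26 and 6.31.

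Set side by side over arrays, the genes that make histamine and load it were both high in GMP GFP+ and PreGM GFP+. GMP GFP- had Hdc without Slc18a2 signal over the median of all values. PreMegE and HSC GFP- had Slc18a2 with Hdc under that median. PreGM GFP- had both means over that median, 6.82 for Hdc and 8.15 for Slc18a2, though its lowest Hdc array, 6.35, lay under it. Pearson's r between Hdc and Slc18a2 was 0.13 over the 26 arrays, against 0.72 between Hdc and Alox5 and 0.57 between Slc18a2 and Alox5. These are descriptions over arrays that share groups.

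**Figure D2:**
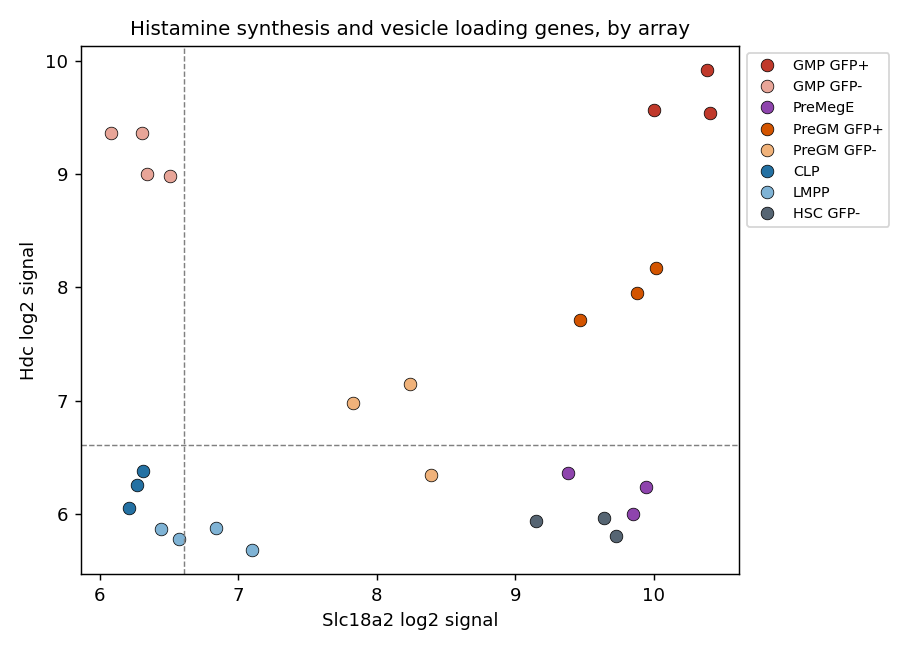
Hdc against Slc18a2, log2 signal, 1 point an array, coloured by population; dashed lines mark the median of all values, 6.61. GMP GFP+ lies high on both axes, GMP GFP- high on Hdc alone, PreMegE and HSC GFP- high on Slc18a2 alone, and CLP and LMPP low on Hdc with Slc18a2 at 7.10 or less. PreGM GFP+ and PreGM GFP- have group means over the median on both axes, with Hdc at 7.95 and 6.82.

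The leukotriene enzymes did not move together. Alox5 read 9.03, 9.18 and 9.36 in GMP GFP+ and 6.92, 7.06 and 7.53 in PreGM GFP+, and neither group overlapped any other. All other group means lay under the median of all values, between 6.02 in LMPP and 6.43 in GMP GFP-. Its partner Alox5ap was well over that median in every group, with means between 9.40 in PreMegE and 10.66 in GMP GFP-, and every pair of neighbours overlapped. The F test of Alox5ap gave an adjusted p of 0.0503, which misses the threshold of 0.05. Its widest groups were PreMegE, with 8.78, 9.23 and 10.18, and CLP, with 9.25, 10.52 and 10.54. Without PreMegE array 3 its adjusted p was 0.00726, and it was also called without PreGM GFP+ array 2, PreGM GFP- array 3 or any 1 CLP array (0.0111 to 0.0414). With all arrays kept it was called with a filter on dim genes (adjusted p = 0.0386), precision weights (0.0147) and a trended robust prior (0.0471). It was also called with the mean of probe sets (0.0494), which changed values of other genes only, as Alox5ap has a single probe set. Over 33 alternatives this p lay between 0.00726 and 0.164, and 10 of them called Alox5ap. Ltc4s had group means between 6.67 and 6.95 (adjusted p = 0.886).

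Of the prostaglandin genes, Hpgds was under the median of all values in all 8 groups by its mean. It read 6.51, 6.53 and 6.58 in GMP GFP+ and 5.45 to 5.73 in GMP GFP-, and the arrays of HSC GFP-, at 5.89, 6.27 and 6.78, overlapped GMP GFP+. Ptgs2 stayed between 5.78 and 6.09 by group mean (adjusted p = 0.337). Tph1, the serotonin enzyme, had group means between 5.51 and 5.73 (adjusted p = 0.87), also all under the median. Alox15 had means between 6.62 and 7.11 (adjusted p = 0.313). Its highest, in GMP GFP+, came from arrays at 7.16, 6.75 and 7.41. Without the second of these the adjusted p was 0.0457, and without the third it was 0.709. Of 26 fits that each left out an array, 25 did not call Alox15.

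The first comparison asked how reporter-positive GMP differ from reporter-negative GMP. Slc18a2, Alox5 and Hpgds rose in GMP GFP+, 3 of the 9 genes, while 7.27% of all genes were called in this comparison. Slc18a2 was higher by 3.96 log2 units of signal (SE 0.19, adjusted p = 2.49e-12). Alox5 was higher by 2.76 (SE 0.16, adjusted p = 5.51e-11) and Hpgds by 0.96 (SE 0.20, adjusted p = 0.00409). For each, every GMP GFP+ array lay above every GMP GFP- array. No share of all genes was taken for such separation, here or in the comparisons below. The median difference of the 9 genes was 0.31, against 0.08 for all genes.

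Hdc, in contrast, missed the threshold: its difference of 0.50 (SE 0.16, 95% confidence interval 0.16 to 0.84) had an adjusted p of 0.067, although the arrays of the 2 groups did not overlap. Over 15 alternatives this p lay between 0.0138 and 0.309, and 3 of them called Hdc: quantile normalization between arrays (0.73, adjusted p = 0.0138), precision weights (0.45, adjusted p = 0.0242) and a replicate block (0.54, adjusted p = 0.0389). Alox15 differed by 0.31 (adjusted p = 0.153), but by 0.49 with an adjusted p of 0.0215 without GMP GFP+ array 2 and by 0.16 without array 3. The intervals for Ltc4s (-0.23 to 0.44), Tph1 (-0.18 to 0.33), Ptgs2 (-0.01 to 0.43) and Alox5ap (-0.72 to 0.53) all included 0. Of all called genes 44.3% were higher in GMP GFP+, a share of 29.1% with each array centred on its median and 51.8% after quantile normalization; the 3 called genes were called under all of these scalings.

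Markers of other cell types moved with these genes. Of 20 measured mast cell and basophil markers 14 rose in GMP GFP+, and their mean lay between 8.04 and 8.18 over its arrays, against 6.002 to 6.21 in GMP GFP-. Of 9 eosinophil markers 8 rose, with a mean of 8.71 to 9.45 against 5.91 to 6.28. Fcer1a and Ms4a2, chains of the high-affinity IgE receptor, averaged 10.56 and 10.87 in GMP GFP+, against 4.26 and 5.50, under the median of all values, in GMP GFP-. Of 16 neutrophil granule genes 10 fell, with a mean of 8.01 to 8.66 in GMP GFP+ against 9.67 to 10.81 in GMP GFP-. Of 15 monocyte and macrophage markers 11 fell and 1 rose, with a mean of 7.06 to 7.29 in GMP GFP+ against 8.33 to 9.03 in GMP GFP-. Of 12 erythroid markers 9 rose, with a mean of 7.88 to 8.09 against 6.57 to 6.7999. Of 10 megakaryocyte markers 2 rose, and of 10 stem cell markers 1 rose. The part of these cells in the differences was not tested. In bulk RNA of sorted cells, fewer cells of a type and less RNA per cell cannot be told apart.

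Among PreGM cells Slc18a2, Hdc and Alox5 rose in PreGM GFP+, 3 of 9 genes, while 2.05% of all genes were called. Slc18a2 was 3.10-fold higher (1.63 log2 units, SE 0.20, adjusted p = 1.72e-05) and Hdc was 2.17-fold higher (1.12, SE 0.17, adjusted p = 0.000354). Alox5 was higher by 1.02 log2 units of signal (SE 0.17, adjusted p = 0.000869). No array of PreGM GFP+ overlapped PreGM GFP- in these 3 genes, a trait for which no share of all genes was taken. With only the 6 arrays compared, the adjusted p of Hdc was 0.0666; over its other 13 alternatives Hdc was called.

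Alox5ap read 9.28, 9.71 and 10.28 in PreGM GFP+ and 10.06, 10.59 and 10.75 in PreGM GFP-, and its difference of -0.71 (SE 0.32, adjusted p = 0.43) was not called. Hpgds differed by -0.02 (95% confidence interval -0.46 to 0.43). Here 4 of 20 mast cell and basophil markers rose, with a mean of 6.65 to 6.81 over PreGM GFP+ arrays against 6.12 to 6.15 in PreGM GFP-. Of 12 erythroid markers 8 rose, with a mean of 8.50 to 8.78 against 6.65 to 7.04. Of 9 eosinophil markers 2 rose. Of 15 monocyte and macrophage markers 9 fell, with a mean of 6.32 to 6.36 in PreGM GFP+ against 8.43 to 8.58 in PreGM GFP-, and of 16 neutrophil granule genes 5 fell. The part of these cells was not tested.

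**Figure D3:**
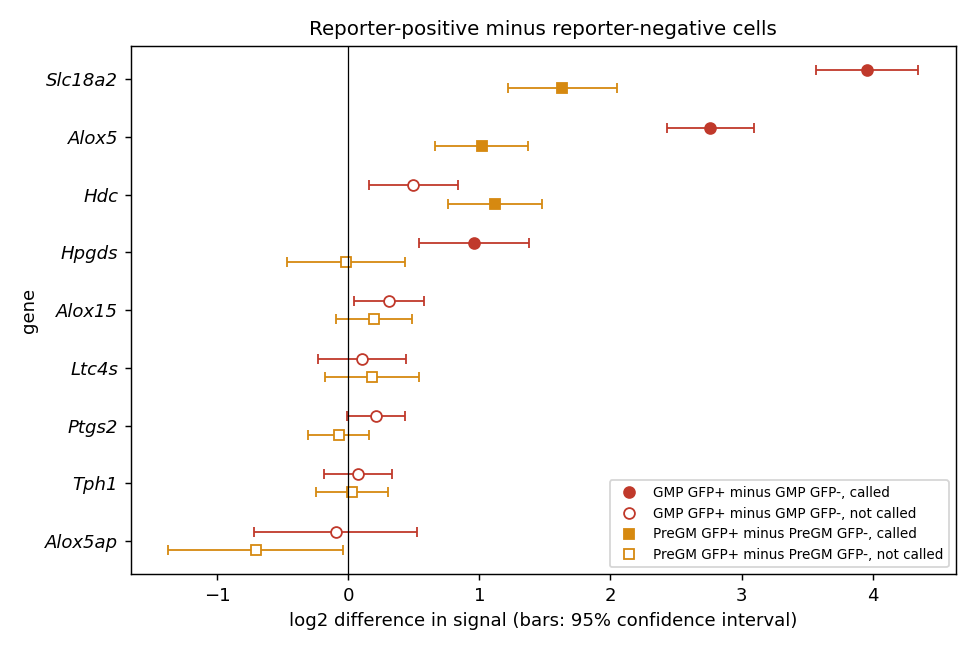
Log2 difference in signal between reporter-positive and reporter-negative cells for the 9 genes, in GMP (circles) and PreGM (squares); bars are 95% confidence intervals and filled symbols have an adjusted p under 0.05. The Slc18a2 and Alox5 differences were larger in GMP (3.96 and 2.76) than in PreGM (1.63 and 1.02).

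The difference between these reporter effects was tested as an interaction. It was called for Slc18a2, whose effect was 2.32 log2 units larger in GMP (SE 0.28, adjusted p = 3.07e-05), and for Alox5, 1.74 larger (SE 0.23, adjusted p = 0.000129), or 2 of 9 genes against 0.702% of all genes. The Hdc effect was smaller in GMP by 0.62 (95% confidence interval -1.12 to -0.13), with an adjusted p of 0.456. The Hpgds effect was 0.98 larger in GMP (SE 0.30), also not called (adjusted p = 0.211), and had an adjusted p of 0.00751 with only the arrays compared, the lowest of 20 alternatives, which reached 0.47.

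The step between PreGM and GMP was examined within each reporter state; these comparisons use the same arrays as the reporter comparisons. In reporter-positive cells Alox5, Hdc and Hpgds rose in GMP GFP+ relative to PreGM GFP+, 3 of 9 genes, with 1.02% of all genes called. Alox5 was 4.06-fold higher (2.02, SE 0.17, adjusted p = 9.39e-08) and Hdc 3.32-fold higher (1.73, SE 0.17, adjusted p = 1.24e-06). Hpgds was higher by 0.93 of signal (SE 0.22, adjusted p = 0.0304), and this call was lost without any 1 of the 6 arrays, with adjusted p between 0.0755 and 0.155. Slc18a2 differed by 0.48 (95% confidence interval 0.06 to 0.89, adjusted p = 0.555). Of 20 mast cell and basophil markers 9 rose, and of 9 eosinophil markers 6 rose, in the same comparison. Of 16 neutrophil granule genes 4 rose, of 15 monocyte and macrophage markers 3 rose, and of 12 erythroid markers 4 fell. Their part was not tested.

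In reporter-negative cells 2 of 9 genes were called, 1 in each direction, against 1.39% of all genes. Hdc was 5.12-fold higher in GMP GFP- than in PreGM GFP- (2.36 log2 units, SE 0.16, adjusted p = 3.59e-09), and Slc18a2 was lower by 1.85 log2 units of signal (SE 0.19, adjusted p = 1.94e-06). Hdc thus rose into GMP in both reporter states, while Slc18a2 fell in reporter-negative cells. Alox5 differed by 0.28 (95% confidence interval -0.05 to 0.61), with both means under the median of all values. Of 16 neutrophil granule genes 11 rose here, with a mean of 9.67 to 10.81 in GMP GFP- against 8.01 to 8.42 in PreGM GFP-. Fcer1a and Ms4a2 averaged 4.26 and 5.50 in GMP GFP-, and 4.32 and 5.24 in PreGM GFP-. Cpa3 and Mcpt8, protease genes of mast cells and basophils, averaged 7.93 and 9.34 in GMP GFP-, against 8.59 and 8.78 in PreGM GFP-, all over the median of all values. Of 20 mast cell and basophil markers limma called 0, and the median difference was -0.07. Of the 20, 1 had an unadjusted p under 0.05, a level at which no share of all genes was taken. The part of these cells was not tested.

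PreMegE cells had Slc18a2 arrays that overlapped those of PreGM GFP+ and Hdc arrays that did not. Hdc fell by 1.75 log2 units of signal in PreMegE relative to PreGM GFP+ (SE 0.17, adjusted p = 1.17e-05), the 1 called gene of 9 in a comparison where 0.0652% of all genes were called. Hdc read 5.998, 6.24 and 6.36 in PreMegE, all under the lowest PreGM GFP+ array of 7.72. With only the 6 arrays compared its adjusted p was 0.0791, the highest of 14 alternatives, which reached down to 1.84e-07. That 6-array fit called 0 of all genes. Alox5 differed by -0.84 (SE 0.17) with an adjusted p of 0.0788, and was called (-0.87, adjusted p = 0.0273) with precision weights alone among 14 alternatives. Slc18a2 differed by -0.06 (95% confidence interval -0.48 to 0.36). Of 20 mast cell and basophil markers 2 fell in PreMegE, with a median difference of -0.06 over the list. Ms4a2 averaged 5.73 in PreMegE against 8.96 in PreGM GFP+, and Fcer1a averaged 5.63 against 7.77. Of 16 neutrophil granule genes 1 rose and 1 fell, with a median difference of 0.63. Their mean was 8.04 to 8.43 over PreMegE arrays against 6.75 to 7.85 in PreGM GFP+. Of 10 megakaryocyte markers 1 rose, with a mean of 7.47 to 7.69 against 7.15 to 7.37, and of 10 stem cell markers 1 rose. Their part was not tested.

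Among the earlier populations Slc18a2 and Hdc were the called genes. In PreGM GFP- relative to LMPP, 2 of 9 genes rose, with 0.873% of all genes called. Slc18a2 was 2.67-fold higher (1.42 log2 units, SE 0.19, adjusted p = 0.000158), and Hdc was higher by 1.03 of signal (SE 0.16, adjusted p = 0.0013). With only the arrays of the 2 groups the adjusted p of Hdc was 0.0735, the highest of 15 alternatives, which reached down to 0.000109. LMPP read 5.68 to 5.87 for Hdc, under all arrays of PreGM GFP-. Of 16 neutrophil granule genes 6 rose in PreGM GFP-, with a mean of 8.01 to 8.42 against 6.60 to 7.24 in LMPP, and of 15 monocyte and macrophage markers 5 rose, with a mean of 8.43 to 8.58 against 7.13 to 7.33. Of 20 mast cell and basophil markers 2 rose. Their part was not tested.

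Slc18a2 was 6.82-fold lower in LMPP than in HSC GFP- (-2.77 log2 units, SE 0.19, adjusted p = 3.73e-09), the 1 called gene of 9, with 2.32% of all genes called. The highest LMPP array, 7.10, lay under the lowest HSC GFP- array, 9.15. Of 10 megakaryocyte markers 5 fell in LMPP in the same comparison, with a mean of 6.45 to 6.60 against 7.04 to 7.25 in HSC GFP-, and of 10 stem cell markers 7 fell. Their part in the difference was not tested.

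In CLP relative to LMPP, 0 of 9 genes were called by limma, with 1.57% of all genes called. At an unadjusted p under 0.05, a level at which no share of all genes was taken, there were 2 of 9. These were Hdc, with a difference of 0.43 (95% confidence interval 0.09 to 0.76, adjusted p = 0.308), and Slc18a2, with -0.48 (95% confidence interval -0.87 to -0.09, adjusted p = 0.342). The count was 0 under each of 15 alternatives.

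Around the 9 genes lie other genes of histamine and serotonin handling, arachidonic acid release, leukotriene conversion and prostanoid synthesis and reception, of which 68 were measured. By the F test 17 of the 68 differed among the 8 groups (25%, against 15.2% of all genes). In the GMP reporter comparison 6 of the 68 were called (8.82%, against 7.27% of all genes), 3 in each direction. The 3 that fell were Mgst2, Lta4h and Ptgr1, and their lists did not fall as a whole. Of 13 genes of leukotriene conversion, transport and receptors 2 fell and 11 were not called. Their median difference was 0.083, against 0.078 for all genes. Of 12 genes of prostanoid synthesis and breakdown 1 rose, 1 fell and 10 were not called. Mgst2, a microsomal transferase that can make leukotriene C4, read 6.51, 7.40 and 7.87 in GMP GFP+ against 10.86 to 11.04 in GMP GFP-, and was 13.2-fold lower (-3.72, SE 0.40, adjusted p = 1.57e-06).

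Lta4h, which makes leukotriene B4, read 7.94 to 8.31 in GMP GFP+ against 9.37 to 9.90 in GMP GFP- and was 2.87-fold lower (-1.52, SE 0.18, adjusted p = 6.73e-06). Ptgr1, a reductase that inactivates leukotriene B4 and prostaglandins, was 4.92-fold lower (-2.30, SE 0.30, adjusted p = 2.35e-05). Alox5 rose and Lta4h and Mgst2 fell in the same comparison, while the difference of Ltc4s was 0.11 and not called (adjusted p = 0.731). The genes that rose were Tbxas1, thromboxane synthase (1.91-fold, adjusted p = 0.00665), the histamine receptor gene Hrh4 (1.28 of signal, adjusted p = 0.00171) and the lipoxygenase gene Alox12e (0.53, adjusted p = 0.00953). Hrh4 read 5.47, 6.32 and 7.15 in GMP GFP+ against 4.94 to 5.09 in GMP GFP-, mostly under the median of all values. The Alox12e call was lost without GMP GFP+ array 3 (adjusted p = 0.0623).

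**Figure D4:**
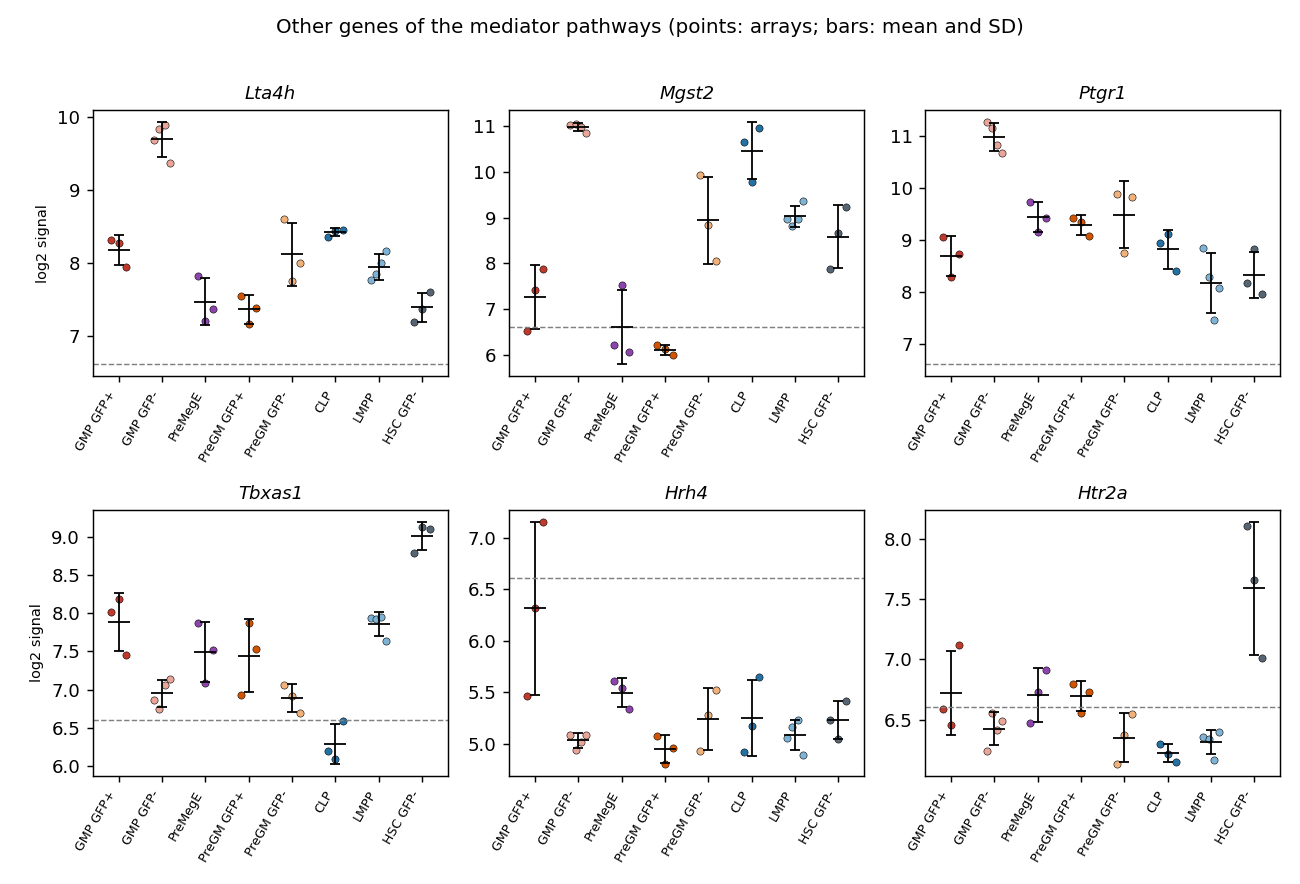
Log2 signal of 6 other genes of the mediator pathways in the 8 populations; points are arrays, bars the group mean and SD, and the dashed line the median of all values, 6.61. Lta4h, Mgst2 and Ptgr1 were highest in GMP GFP-, with means of 9.69, 10.98 and 10.99, Hrh4 in GMP GFP+, and Tbxas1 and Htr2a in HSC GFP-, with means of 9.01 and 7.59.

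In the PreGM reporter comparison 2 of the 68 were called (2.94%, against 2.05% of all genes). Mgst2 fell by 2.83 log2 units of signal in PreGM GFP+ (adjusted p = 0.000293), with a mean of 6.11 against 8.94 in PreGM GFP-. Lta4h was 1.69-fold lower (adjusted p = 0.0409), a call that held in 1 of 6 fits without an array, and its adjusted p reached 0.28 when PreGM GFP- array 1 was left out. The interaction was called for 2 of the 68 (2.94%, against 0.702% of all genes), Ptgr1 (-2.10, adjusted p = 0.0194) and Hrh4 (1.58, adjusted p = 0.0359). Of 13 fits that each left out an array, 9 called Ptgr1, with adjusted p up to 0.0711 without GMP GFP+ array 2, and 2 called Hrh4, reaching 0.115 when PreGM GFP- array 3 was left out.

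In GMP GFP- relative to PreGM GFP-, 5 of the 68 were called (7.35%, against 1.39% of all genes), all higher in GMP GFP-. Lta4h was 2.99-fold higher (1.58, SE 0.18, adjusted p = 9.51e-06) and was called without any 1 array. Mgst2 (4.11-fold, adjusted p = 0.00728), Ptgr1 (2.83-fold, adjusted p = 0.00822) and the transporter gene Abcc4 (1.92-fold, adjusted p = 0.0087) each lost the call without 1 PreGM GFP- array. That was array 3 for Mgst2 (adjusted p = 0.0772) and array 2 for Ptgr1 (0.105) and Abcc4 (0.104). The leukotriene B4 receptor gene Ltb4r1 was 1.88-fold higher (adjusted p = 0.0375) and was called in 2 of 7 such fits, with adjusted p up to 0.163 without GMP GFP- array 2. In reporter-positive cells 2 of the 68 rose in GMP GFP+ relative to PreGM GFP+ (2.94%, against 1.02% of all genes). These were Hrh4 (1.37, adjusted p = 0.0059; 0.273 with only the arrays compared) and Lta4h (0.81, adjusted p = 0.0407). Lta4h was called in 1 of 6 fits without an array, and its adjusted p reached 0.248 when PreGM GFP+ array 2 was left out.

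In the stem and lymphoid comparisons Tbxas1 stood out among the 68. It read 7.63 to 7.95 in LMPP against 8.80 to 9.14 in HSC GFP-, 2.22-fold lower (adjusted p = 0.00226). It fell further, by 1.57 log2 units of signal, in CLP relative to LMPP (adjusted p = 5.84e-05), and both calls held without any 1 array. The serotonin receptor gene Htr2a fell by 1.28 of signal in LMPP relative to HSC GFP- (adjusted p = 0.00024), with HSC GFP- arrays at 7.01, 7.66 and 8.11. Slc18a1, the other vesicular monoamine transporter, differed the other way (0.75, adjusted p = 0.0376), with LMPP at 7.11 against 6.36 in HSC GFP-, and was called in 1 of 7 fits without an array, with adjusted p up to 0.135 without LMPP array 1. These 3 were the calls among the 68 in that comparison (4.41%, against 2.32% of all genes).

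In CLP relative to LMPP 3 of the 68 were called (4.41%, against 1.57% of all genes), all lower in CLP. Beside Tbxas1 they were the prostaglandin E receptor gene Ptger3 (1.73-fold lower, adjusted p = 0.00437; 0.0641 without CLP array 2) and Pla2g4a, the phospholipase that releases arachidonic acid (2.68-fold lower, adjusted p = 0.0289). Pla2g4a was called in 2 of 7 fits without an array, with adjusted p up to 0.183 without CLP array 2. In PreGM GFP- relative to LMPP, 2 of the 68 were called (2.94%, against 0.873% of all genes). Ptgr1 was 2.49-fold higher (adjusted p = 0.0345) and Tbxas1 1.96-fold lower (adjusted p = 0.023). Each was called in 2 of 7 fits without an array, and the adjusted p reached 0.177 for Ptgr1 when PreGM GFP- array 1 was left out and 0.11 for Tbxas1 when array 3 was. In PreMegE relative to PreGM GFP+, limma called 0 of the 68, with 0.0652% of all genes called. Of the 68, 2 had an unadjusted p under 0.05, a level at which no share of all genes was taken.

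For each of the 4 mediator genes whose group means spanned at least 1 log2 unit, the genes with the most similar pattern were taken by Pearson's r over the 26 arrays, among 2461 genes that spanned as much. Nearest to Hdc were Papss2 (r = 0.94), Fcgr3 (0.92), Ms4a3 (0.90), Far2 (0.88) and Mcpt8 (0.85). Fcgr3 belongs to the gate that defines GMP, and Mcpt8 is on the mast cell and basophil list. Nearest to Slc18a2 were Gata2 (0.93), Itga2b (0.92), Apoe (0.90), Galnt6 (0.90) and Pafah2 (0.88). Itga2b is the CD41 gene whose RNA ran against the gate in GMP GFP+, PreMegE and PreGM GFP+. Gata2 is on the mast cell and basophil list and Itga2b on the megakaryocyte list. Nearest to Alox5 were Gzmb (0.97), Cdh1 (0.95), Abca8b (0.95), Il6 (0.94) and Fcer1a (0.93), of which Gzmb, Il6 and Fcer1a are on the mast cell and basophil list. For Alox5ap the highest values were lower: Rgs2 (0.78), Cst3 (0.77), Hif1a (0.76), Pycard (0.76) and Tctex1d2 (0.75). The arrays share groups, so these values describe patterns over 8 populations more than over 26 independent samples.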

How the data were processed

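Per the labels, RNA was extracted with RNeasy Micro and hybridised as biotin-labelled cRNA to Mouse Gene 1.1 ST arrays. The authors deposited a log2 signal for each probe set on each array, with RMA and oligo named in the submitters' processing notes, without versions, and the log base is not stated (the range, 2.00 to 14.31, fits base 2). Of 35556 probe sets, 21789 named 1 gene in the annotation, which is that of the 1.0 ST array; 1621 named several and 12146 none, and these were left out. The probe set with the highest mean was taken for 999 genes with several, leaving 19938 genes. No filter on low values was applied.

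limma 3.58.1 in R 4.3.3 fitted 1 coefficient per group to all 26 arrays, so that groups share 1 estimate of spread. Moderated p-values were adjusted across the 19938 genes (Benjamini-Hochberg), and a gene was called when its adjusted p was under 0.05. The number of arrays limits the precision. Differences are the first-named group minus the other. The script was tested on simulated data. Alternatives were quantile normalization, centring of arrays, a filter on dim genes, the mean of probe sets, precision weights, a trended robust prior, a replicate block, only the arrays compared, and each array left out. The mediator genes, the other pathway genes and the marker lists were chosen with earlier results of these data known. All mediator genes are named; of each other pathway list at most 4 called genes per comparison, those with the largest differences; and, as nearest patterns, the 5 genes of highest r, passing over model identifiers, small RNAs and receptor segments. Promoters came from RefSeq (GRCm38.p6), matched by symbol.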

Additional observations from a re-analysis of the deposited data

Results flagged for a closer look

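The difference between reporter-positive and reporter-negative cells was not the same in GMP and in PreGM for 4 genes, by a test of the difference itself in limma. Slc18a2 (2.32 log2 units, adjusted p = 3.07e-05) and Alox5 (1.74, adjusted p = 0.000129) had the larger reporter difference in GMP. For Slc18a2, GMP GFP- was called lower than PreGM GFP- (-1.85), and GMP GFP+ was not called against PreGM GFP+ (0.48). For Alox5, GMP GFP+ was called higher than PreGM GFP+ (2.02), and GMP GFP- was not called against PreGM GFP- (0.28). In the test of the difference, Slc18a2 and Alox5 were called in all 21 alternatives, with Slc18a2 between 2.16 and 2.49 and Alox5 between 1.62 and 1.92. Hrh4 (1.58, adjusted p = 0.0359) had signals mostly under the median of all values and was called in 7 of 20 alternatives. Ptgr1 (-2.10, adjusted p = 0.0194) fell more in GMP and was called in 16 of 21. In this test 0.702% of all genes were called. Of 20 mast cell and basophil markers 8 were called higher, and of 9 eosinophil markers 6. Also higher were 3 of 15 monocyte and macrophage, 2 of 11 B lymphoid, 2 of 10 dendritic cell and 1 of 10 stem cell markers. Called lower were 3 of 16 neutrophil granule genes, 2 of 12 erythroid markers and 1 of 10 megakaryocyte markers. Their part was not tested.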

How the results depend on the processing

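Over the comparisons and the interaction, leaving out the F test across all groups, 17 gene-by-comparison results of the 9 mediator genes were called. In 258 repeats under alternatives 248 stayed on their side of the threshold and 0 changed direction. The 10 that did not were Hpgds in GMP GFP+ against PreGM GFP+ (with a replicate block, adjusted p = 0.0653, and without any 1 of 6 arrays) and Hdc in 3 comparisons fitted to only the arrays compared. The number of called mediator genes changed by over 1.5 times in 3 instances. For PreMegE against PreGM GFP+ the main value was 1, with 13 of all genes called. It was 2 with precision weights, which called 21 of all genes. It was 0 with only the arrays compared, which called 0 of all genes. For PreGM GFP- against LMPP the main value was 2, with 174 of all genes called. It was 1 with only the arrays compared, which called 66 of all genes. Fits to only the arrays compared hold fewer arrays. The precision weights did not fully converge. Of 64 results not called, 6 of 957 repeats called one, for Hdc, Alox15, Alox5 and Hpgds. These counts leave out the F test. Its main fit called neither Alox5ap nor Alox15, but 10 of 33 alternatives called Alox5ap and 1 of 33 called Alox15.

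The labels give groups the same replicate numbers, and whether same-numbered arrays deviate together was checked. The correlation of their deviations lay between -0.045 and 0.064 in the 2 GMP groups and between -0.086 and 0.162 in the 2 PreGM groups. It was higher between PreGM GFP- and LMPP (0.0996, 0.224 and 0.325) and between GMP GFP+ and PreGM GFP+ (0.018, 0.224 and 0.229), and lay between -0.263 and 0.080 in the other 4 comparisons. No comparison had every pair over 0.1, although PreGM GFP- against LMPP came close, so the arrays are not treated as pairs. The replicate block called Hdc in the GMP reporter comparison (0.54, adjusted p = 0.0389). Beside Hpgds it lost 6 calls of other pathway genes: Lta4h in the PreGM reporter comparison (adjusted p = 0.0536) and in GMP GFP+ against PreGM GFP+ (0.0571), Ltb4r1 in GMP GFP- against PreGM GFP- (0.0882), Tbxas1 in PreGM GFP- against LMPP (0.0588), Slc18a1 in LMPP against HSC GFP- (0.0783) and Pla2g4a in CLP against LMPP (0.0534). The filter on dim genes left 12403 genes and 6 of the 9 mediator genes, so Tph1, Hpgds and Ptgs2 have no value there. A signal under 6.61 may be background, which limits what can be said of low genes.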
